A study of Mus musculus with 4 samples.

Results

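The 6 erythroid genes described here are *Alas2*, *Hba-a1*, *Hbb-bt*, *Ahsp*, *Slc4a1* and *Klf1*, out of 37021 genes on a mouse expression microarray hybridized with liver RNA. They were picked by name, with the ratios of these same arrays in view, and every non-control probe carrying one of the 6 names was taken, 8 probes in all. The levels and ratios of the 6 genes are therefore a description. The mice were C57BL/6 wild-type animals with an age of 6 weeks in the labels, injected intraperitoneally on 5 days of each week over 3 weeks. Females received 5 mg/kg/day and males 2 mg/kg/day of aristolochic acid type I (AAI), a plant nephrotoxin, and the controls of each sex received corn oil, the vehicle. RNA from 5 mice was pooled and hybridized to 1 array for each of the 4 groups, so no difference has a replicate error and none was tested. Sex and dose cannot be told apart in a comparison of the AAI-treated groups, nor group and array in any comparison.

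Red cells are made in the marrow and, in the mouse, also in the spleen, and the adult liver receives their RNA with the blood it holds, since young red cells (reticulocytes) still carry mRNA. Erythroblasts build hemoglobin from α- and β-globin chains and heme, and the genes for these steps are switched on by erythroid transcription factors such as GATA1 and KLF1. *Hba-a1* and *Hbb-bt* encode an adult α- and an adult β-globin chain. *Ahsp* encodes the chaperone that holds free α-globin until it pairs with β-globin. *Alas2* encodes the erythroid form of the first enzyme of heme synthesis, *Slc4a1* encodes band 3, the anion exchanger that anchors the red cell membrane, and *Klf1* encodes an erythroid activator that binds CACCC elements.

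The probes are 60 bases long, and 3 of them are shown to make clear what was hybridized. They are the *Ahsp* probe, the second *Hba-a1* probe and the brightest *Klf1* probe, all from the files and written 5′ to 3′ without capitals.
Ahsp: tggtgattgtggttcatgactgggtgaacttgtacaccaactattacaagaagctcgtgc
Hba-a1: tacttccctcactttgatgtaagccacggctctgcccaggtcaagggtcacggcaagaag
Klf1: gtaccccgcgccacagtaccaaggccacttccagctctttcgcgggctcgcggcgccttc
The brightest *Hba-a1* probe shares a run of 59 bases with the probe for *Hba-a2*, the neighbouring α-globin gene, so the signals of these genes cannot be told apart and *Hba-a1* stands for both. None of the other 7 member probes shares a run of 20 bases with a probe of another gene. On mouse build mm9, as given in the files, the probes lie at chrX:147004993-147005052 (*Alas2*, NM_009653), chr7:110961105-110961164 (*Hbb-bt*, NM_008220) and chr11:102210256-102210315 (*Slc4a1*, NM_011403). Those of *Hba-a1* (NM_008218) lie at chr11:32184427-32184486 and chr11:32183955-32184014, and those of *Klf1* (NM_010635) at chr8:87427100-87427159 and chr8:87428881-87428940. The *Ahsp* probe (NM_133245) carries no position in the files. Whether each probe lies in coding sequence or in a UTR was not analysed here.

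The RefSeq table of promoters (GRCm38.p6) lists 4 of the 6 genes. *Ahsp* and *Slc4a1* are the others. The 250 bases before the start of each gene are shown because *Alas2*, *Hba-a1* and *Hbb-bt* were lower together in AAI-treated males while *Klf1* was not. Capitals mark matches on either strand to the GATA motif (AGATAA or TGATAA), to CACCC and to CCAAT. The windows are chr11:32283422-32283671 on the plus strand (*Hba-a1*), chr7:103813924-103814173 on the minus strand (*Hbb-bt*), chrX:150547167-150547416 on the plus strand (*Alas2*) and chr8:84901732-84901981 on the plus strand (*Klf1*).
Hba-a1: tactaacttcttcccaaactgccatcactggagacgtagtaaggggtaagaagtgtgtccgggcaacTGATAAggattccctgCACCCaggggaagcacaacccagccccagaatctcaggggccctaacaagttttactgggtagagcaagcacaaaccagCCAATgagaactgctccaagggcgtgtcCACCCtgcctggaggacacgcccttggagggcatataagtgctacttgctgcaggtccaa
Hbb-bt: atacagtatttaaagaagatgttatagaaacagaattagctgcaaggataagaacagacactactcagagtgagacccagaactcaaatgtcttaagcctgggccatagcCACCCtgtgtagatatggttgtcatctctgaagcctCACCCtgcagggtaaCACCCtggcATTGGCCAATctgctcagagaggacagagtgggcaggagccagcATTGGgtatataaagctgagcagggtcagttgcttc
Alas2: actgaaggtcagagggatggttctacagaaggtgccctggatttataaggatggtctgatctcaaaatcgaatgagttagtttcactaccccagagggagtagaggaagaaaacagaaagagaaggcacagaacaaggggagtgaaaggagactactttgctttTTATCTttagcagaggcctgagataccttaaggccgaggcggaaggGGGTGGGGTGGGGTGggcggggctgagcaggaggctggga
Klf1: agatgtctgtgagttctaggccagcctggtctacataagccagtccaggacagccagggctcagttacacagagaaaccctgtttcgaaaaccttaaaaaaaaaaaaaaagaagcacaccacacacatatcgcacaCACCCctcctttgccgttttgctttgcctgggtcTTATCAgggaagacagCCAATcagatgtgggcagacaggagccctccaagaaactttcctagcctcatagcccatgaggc
CACCC stands in 4 of these 4 windows, against 52.0% of the 32841 windows of the same length in the table. The GATA motif stands in 3 of the 4, all but *Hbb-bt*, against 16.6% of all windows. CCAAT stands in 3 of the 4, all but *Alas2*, against 33.9%. *Klf1* holds all 3 motifs, as *Hba-a1* does, although their ratios differed. These are matches of letters and say nothing of binding.

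The arrays also differed in measures other than the erythroid genes. The share of probes well above background ran from 74.7% on the array of AAI-treated males to 81.5% on that of AAI-treated females. Spots with a processed signal more than 5-fold below the background-subtracted signal numbered 26 in female controls and 77 in AAI-treated males. There were 0 in AAI-treated females and in male controls. Processed signals of female controls and AAI-treated males were also stored with fewer digits. Their medians were 110 and 115, against 128.634 in AAI-treated females and 124.983 in male controls. The 15 hepatocyte markers, among them those defining the tissue, were above background on all 4 arrays, with median log2 ratios of 0.11 in females and 0.02 in males. Many are among the brightest signals, and quantile normalization gives the top ranks the same values on every array. Of 12 skeletal muscle markers, 12 were at least 2-fold higher with AAI in each sex, with medians of 5.45 in females and 6.01 in males. Of 10 adrenal markers, 8 were at least 2-fold higher in males (median 3.74) and 0 in females (median 0.10). These arrays cannot be left out, since each is the only one of its group.

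In AAI-treated males, 4 of the 6 erythroid genes were at least 2-fold below corn oil-treated males, and 0 were at least 2-fold above. Over all 30539 genes compared in males, 4.59% were lower by that much and 3.51% higher. In AAI-treated females, 0 of the 6 were at least 2-fold lower and 1, *Ahsp*, was at least 2-fold higher, against 3.09% lower and 1.37% higher of 31682 genes. Since the genes were picked on these ratios, nothing is read from these shares. In females the split of all called genes depended on the scaling, with 69.3% of them lower after quantile normalization and 54.5% with scaling to the 75th percentile of an array. The median log2 ratio of the 6 genes was -1.77 in males and -0.38 in females, and the medians of all genes were 0.00 and 0.04. In bulk liver RNA, fewer red cells in the tissue and less of these RNAs per cell cannot be told apart.

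**Figure D1:**
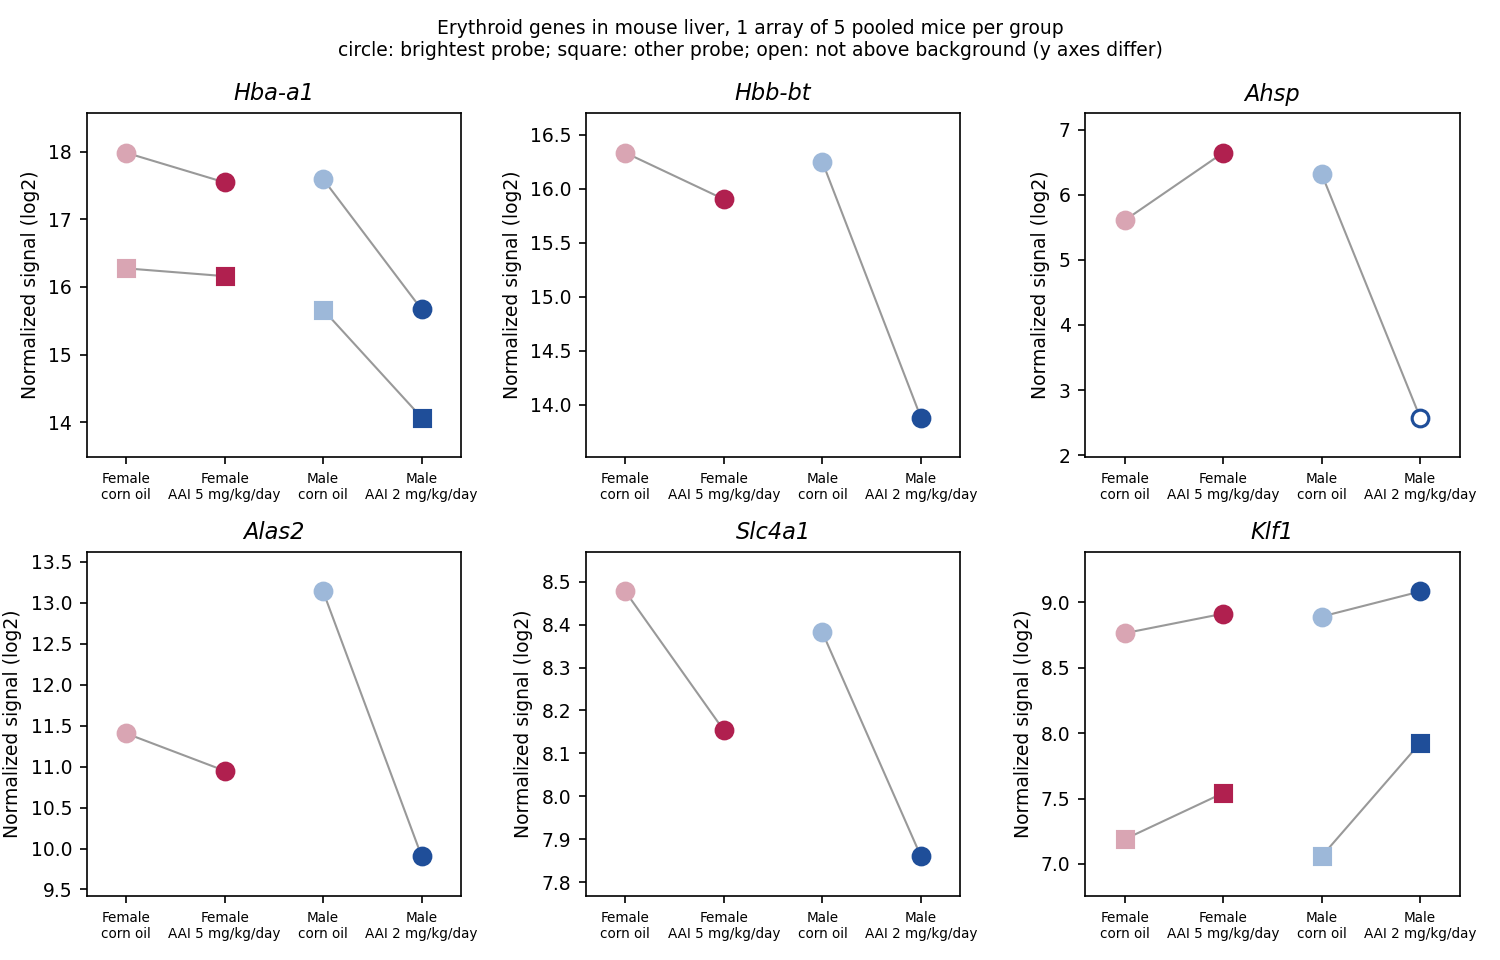
Normalized log2 signal (y axis, scale differs between panels) of every probe of the 6 erythroid genes on the 4 arrays (x axis, 1 array of 5 pooled mice per group). Circles are the brightest probe and squares another probe of the gene, and the open symbol is not above background. The array of AAI-treated males is the lowest of the 4 for every gene except *Klf1*, where it is the highest.

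*Hba-a1*, the α-globin gene, was lower with AAI in males on both of its probes. The brightest *Hba-a1* probe had normalized log2 signals of 17.98 in female controls, 17.55 in females given AAI, 17.59 in male controls and 15.67 in males given AAI. The pool of AAI-treated males stood apart below the other 3. The AAI over corn oil log2 ratio was -1.93 in males, a 3.81-fold lower signal, and -0.44 in females. The second *Hba-a1* probe gave -1.60 in males and -0.11 in females, and whether it also matches the *Hba-a2* transcript was not analysed here. This probe pair was printed in up to 10 spots per array, with SDs between spots of 0.026 to 0.096 on the log2 scale, which measure repeat spots of 1 array and not the variation between pools. Ranked from the lowest ratio, *Hba-a1* was gene 225 of 28433 in males.

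*Hbb-bt* followed the same order of arrays, with 16.33 in female controls, 16.25 in male controls, 15.90 in females given AAI and 13.88 in males given AAI. The corn oil pools of the sexes differed by less than 0.20, the error that the scanner's error model gives for a ratio, and the pool of AAI-treated males stood apart below the rest. The ratio was -2.37 in males, 5.17-fold lower, and -0.43 in females. The remaining adult globins measured were *Hba-a2*, *Hbb-b1* and *Hbb-b2*, and 3 of the 3 were at least 2-fold lower in males, with log2 ratios of -1.95, -1.79 and -1.80. In females their ratios were -0.48, -0.70 and -0.21, and 0 of the 3 reached 2-fold. *Hbb-bs* has no probe under that name. Closely related globin genes can hybridize to each other's probes, so each of these values is uncertain as to the gene. The *Hba-a2* probe shares 59 bases with the brightest *Hba-a1* probe, so its ratio repeats that of *Hba-a1* and is no separate value. By contrast, of 4 embryonic and minor globins with a value, 0 reached 2-fold in either sex, with medians of 0.26 in females and -0.12 in males.

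*Ahsp*, the α-globin chaperone, was the only one of the 6 to move in opposite directions in the sexes. Its log2 signals were 5.60 in female controls, 6.64 in females given AAI and 6.32 in male controls, and in males given AAI the probe was not well above background. The female AAI pool was thus the highest of the 4, 2.06-fold above its control (log2 ratio 1.04). In males the signal was at least 3.07-fold lower, a log2 bound of -1.62, while the measured difference was -3.74. The processed signals behind these values were 45 and 109 in females (controls, then AAI) and 82.3 and 5.44 in males, and the error of the lowest one was 1.45 on the log2 scale. *Ahsp* rests on 1 probe of 1 spot, and with normexp background correction neither ratio reached 2-fold (0.51 in females and -0.68 in males).

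*Alas2*, the erythroid heme synthesis enzyme, was lower with AAI in males and under 2-fold lower in females. Its log2 signals were 11.40 in female controls, 10.95 in females given AAI, 13.14 in male controls and 9.90 in males given AAI. The corn oil pools of the sexes were already 3.32-fold apart, with males higher (log2 difference 1.73), and the AAI pools were 2.06-fold apart with males lower. The log2 ratio in males was -3.23, a 9.40-fold lower signal, and *Alas2* was gene 34 of 28433 from the lowest. In females it was -0.46, below 2-fold. The median SD between probes of a gene was 0.25 in females, which does not measure variation between pools. Of genes above background on both female arrays, 45.9% had ratios within that SD. The pool of AAI-treated males was the lowest of the 4 and that of corn oil-treated males the highest. *Alas2* rests on 1 probe of 1 spot per array, as *Hbb-bt* and *Slc4a1* do.

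*Slc4a1*, the band 3 anion exchanger, had log2 signals of 8.48 in female controls, 8.38 in male controls, 8.15 in females given AAI and 7.86 in males given AAI. The corn oil pools differed by less than the scanner error. The ratios of -0.52 in males and -0.32 in females ran the same way as those of the globins and did not reach 2-fold.

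*Klf1*, the transcription factor, was not lower with AAI in either sex. Its brightest probe gave 8.76 in female controls, 8.91 in females given AAI, 8.89 in male controls and 9.08 in males given AAI. No 2 neighbours in this order differed by more than the scanner error of a ratio, about 0.20. The log2 ratios were 0.15 in females and 0.19 in males. The second *Klf1* probe gave 7.19 and 7.54 in females and 7.06 and 7.93 in males, ratios of 0.35 and 0.87. Both probes thus lay on the side of higher signal in both sexes, and the probes differed from each other in males by more than the SD of 0.24 between probes.

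**Figure D2:**
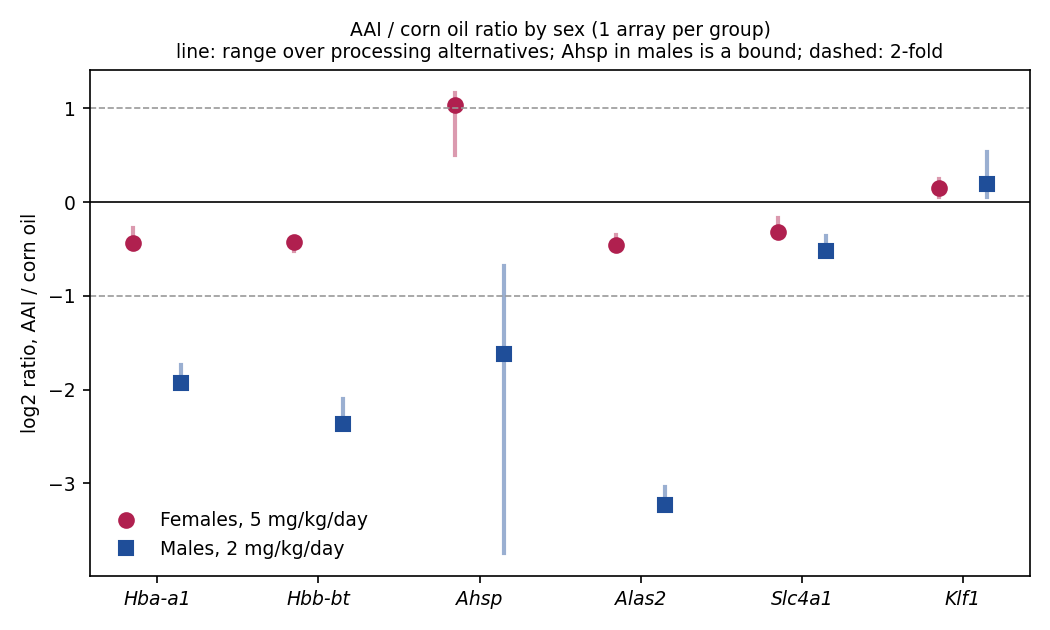
The AAI over corn oil log2 ratio (y axis) of each of the 6 genes in females (circles) and males (squares), with 1 array per group. Lines span the processing alternatives and dashed lines mark 2-fold. *Alas2*, *Hbb-bt* and *Hba-a1* stay below -1 in males under all 8 alternatives, from -3.26 to -1.74, while *Ahsp* runs from -3.74 to -0.68.

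The wider erythroid program was measured with 8 gene lists, written with earlier results of these arrays known, which hold 93 further genes with a value. Of 88 of these measured in females, 5 were at least 2-fold lower and 0 higher, and of 89 in males, 5 were lower and 4 higher. Over all genes compared, 3.09% were lower and 1.37% higher in females, and 4.59% lower and 3.51% higher in males. Of the 5 lower in males, 3 were the adult globins, with *Hba-a2* among them. The medians of the genes in these lists were -0.05 in females and -0.07 in males. Outside the adult globins, the list medians lay between -0.30 and 0.13 in males.

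For the heme synthesis and mitochondrial transport list, 0 of 13 genes reached 2-fold in either sex, with medians of 0.19 in females and -0.19 in males. *Alas1*, the general form of the enzyme that *Alas2* encodes, had ratios of -0.90 in females and -0.87 in males, nearly the same in both sexes. *Abcb10*, a mitochondrial transporter of erythroid heme synthesis, had -0.97 in males and 0.22 in females. *Fech*, the enzyme that inserts iron, had 0.19 and 0.05.

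Of the red cell membrane list, 17 genes were measured in females and 18 in males. *Xk*, a membrane antigen protein, was 2.17-fold lower in males (log2 ratio -1.12) and had -0.99 in females. *Sptb*, β-spectrin, was 2.07-fold higher in males on its brightest probe (1.05) and 0.24 on its other. *Dmtn*, an actin-bundling protein of the red cell skeleton, was 2.13-fold lower in females (-1.09), with 0.11 on its other probe. *Epb4.2*, which encodes a protein of the membrane skeleton, was not well above background on any of the 4 arrays.

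Of 13 erythroid transcription factors measured, 0 reached 2-fold in males and 1, *Hemgn*, in females (-1.12, with -0.71 in males). *Hemgn* has 2 probes, of which 1 was not well above background on any array. *Gata1*, the factor that defines the lineage, was not well above background on any of the 4 arrays. *Nfe2*, which is also found in megakaryocytes, had 0.75 and 0.97. Among 10 late erythroid genes, *Trim58*, a ubiquitin ligase of maturing red cells, was 2.51-fold lower in females (-1.33, with -0.29 in males). *Bpgm*, the enzyme of 2,3-bisphosphoglycerate synthesis, had -0.72 in males and 0.16 in females. Averaging all probes of a gene, dim ones included, gave -0.08 for *Hemgn* and -0.49 for *Dmtn* (females) and 0.64 for *Sptb* (males), all under 2-fold.

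**Figure D3:**
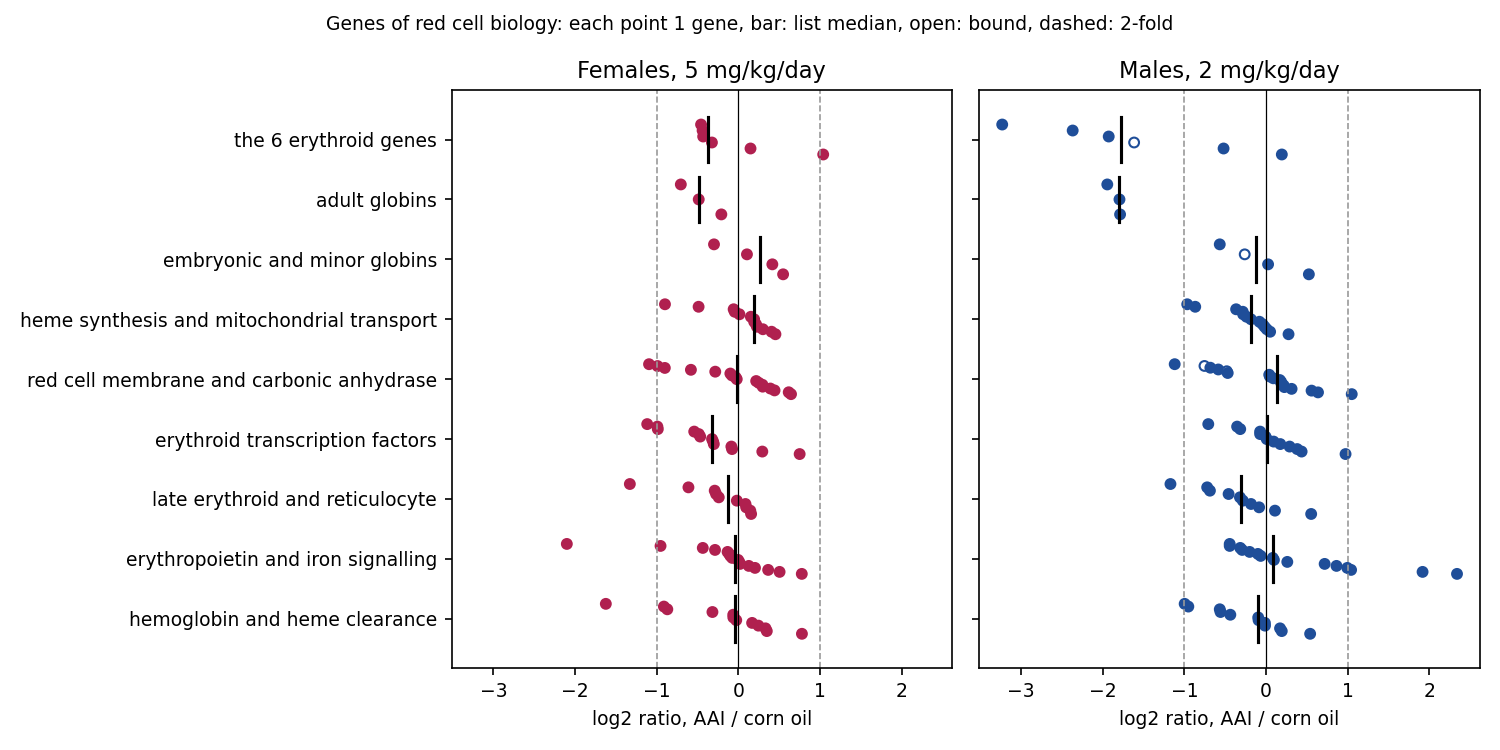
The log2 ratio (x axis, same scale in both panels) of each gene of the erythroid lists (rows) in females and males, 1 point per gene, with bars at the list medians and dashed lines at 2-fold. In males the adult globins lie near the 6 genes, with medians of -1.80 and -1.77, and the other lists have medians between -0.30 and 0.13. The adult globins include *Hba-a2*, whose signal cannot be told apart from that of *Hba-a1*.

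The liver itself controls iron supply to red cells through hepcidin. Of 16 genes of erythropoietin and iron signalling, 3 were at least 2-fold higher in males and 1 at least 2-fold lower in females. *Id1*, a target of the bone morphogenetic protein pathway that senses iron, gave 10.69 and 10.41 (controls, then AAI) in females and 9.87 and 12.21 in males, 5.05-fold higher with AAI in males. *Smad7*, an inhibitor induced by the same pathway, was 2.06-fold higher in males (1.04) and had -0.95 in females on its brightest probe. Its other probe gave 0.35 in males and -0.09 in females. *Hamp2*, a hepcidin-related gene, had 16.66 and 14.56 in females and 13.11 and 15.02 in males, 4.29-fold lower with AAI in females and 3.77-fold higher in males; the difference between the sexes was not tested. *Hamp*, hepcidin, had 0.78 and 0.86, the same direction in both sexes. *Epo*, erythropoietin, had 0.51 and -0.20, *Epor*, its receptor, -0.10 and -0.07, and *Tfrc*, the transferrin receptor that marks iron-hungry cells, 0.13 and -0.45. Of 12 genes that clear hemoglobin and heme, 1 was at least 2-fold lower in females and 0 in males. It was *Spic*, the factor of iron-recycling macrophages, with -1.62 in females and -0.95 in males.

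Markers of other cell types moved on the same arrays as the erythroid genes. The summed signal of the 6 genes, in log2, was 18.40 and 17.96 in corn oil- and AAI-treated females and 18.12 and 16.07 in males. Signals were summed before the log2 was taken, so *Hba-a1* and *Hbb-bt* set this sum almost wholly. *Alas2*, *Slc4a1*, *Ahsp* and *Klf1* hardly enter it. For skeletal muscle the summed signal was 10.56 and 15.57 in females and 12.62 and 18.57 in males. For the adrenal it was 11.84 and 11.86, and 12.72 and 15.97. For fat it was 12.91 and 13.51, and 14.57 and 16.65. The fat markers did not move together. Of 9 measured in females, 4 were at least 2-fold higher and 0 lower. Of 10 in males, 6 were higher, with *Ucp1* the highest (7.91), and 1 was lower, *Elovl3* (-5.71). *Elovl3* had the highest signal of the fat list in male controls, 13.58, against 7.69 in female controls. Whether that signal comes from fat was not tested. Of 11 Kupffer cell and macrophage markers, 9 were at least 2-fold lower in females and 2 in males, with sums of 16.66 and 15.57, and of 16.47 and 15.81. Of 12 neutrophil and marrow granulocyte markers, 11 were measured in males and 5 were at least 2-fold higher, with sums of 13.64 and 15.51 in males and 15.46 and 15.68 in females. This list was mixed in males, with ratios from -0.66 (*Mpo*) to 4.05 (*Lcn2*) and a median of 0.80. *Lcn2*, at 14.61, was the largest part of the sum in AAI-treated males. Of 10 platelet and megakaryocyte markers, 0 were at least 2-fold lower and 1, *Pf4* (1.68), at least 2-fold higher in males, with a median of -0.05 and sums of 12.93 and 13.37. In females 1 was lower, *Clec1b* (-1.22), and 1 higher, *Pf4* (1.89), with a median of 0.07 and sums of 13.22 and 12.68. *Clec1b* was the largest part of the platelet sum on every array. Female controls had a *Clec1b* signal of 13.00 and AAI-treated females 11.78, while male controls had 12.64 and AAI-treated males 12.98. The lower sum in AAI-treated females therefore does not describe the list as a whole. Whether the *Clec1b* signal comes from platelets was not tested. The part of these marker lists in the erythroid differences was not tested.

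**Figure D4:**
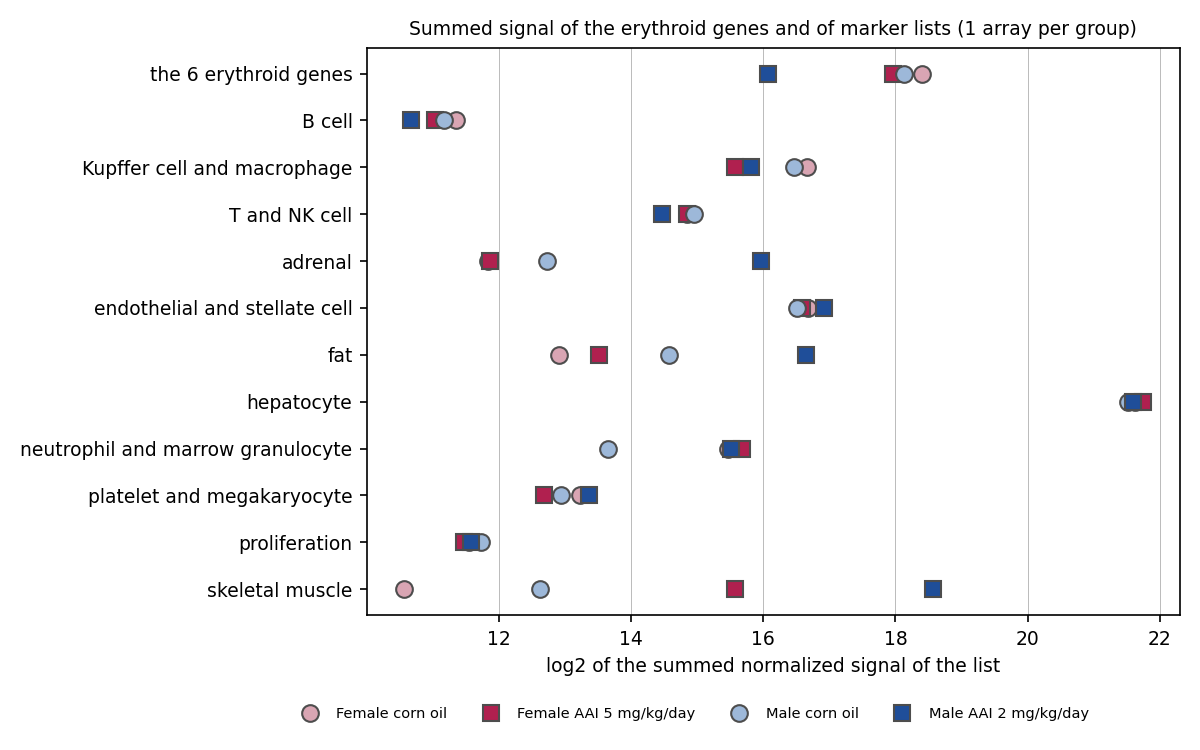
Log2 of the summed normalized signal (x axis) of the 6 erythroid genes and of 11 marker lists (rows) on the 4 arrays, with corn oil as circles and AAI as squares. The sum of the erythroid genes, set almost wholly by *Hba-a1* and *Hbb-bt*, is lowest in AAI-treated males at 16.07. On that array the sums of the skeletal muscle, adrenal and fat lists are highest. The hepatocyte list spans 21.52 to 21.75 over the arrays. Its sum is set by the brightest signals, and quantile normalization gives the top ranks the same values on every array. The narrow span therefore does not measure hepatocyte content.

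The pattern of the 6 genes over the arrays was also set against every gene above background on all 4. Over 28234 genes, the 10 with profiles nearest to the median profile of the 6 had root mean square differences of 0.15 to 0.25 on the log2 scale. Those with gene symbols of known proteins were *Casc4*, *Spon2*, *Ces2e*, a carboxylesterase, and *Dct*, dopachrome tautomerase. None of the 10 is in an erythroid list. *Hba-a1* and *Hbb-bt* themselves lay at 0.28 and 0.27 from that median, *Slc4a1* at 0.60, *Alas2* at 0.70, *Ahsp* at 0.89 and *Klf1* at 0.90. The median was taken over all 6 genes. It includes the signal of *Ahsp* in AAI-treated males, which was not well above background.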

How the data were processed

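RNA from the livers of 5 mice per group was pooled and hybridized to 1 single-color Agilent array, all 4 arrays on 1 slide. The authors scanned them and read the spots with the Feature Extraction software (10.5.1.1), and the deposited processed intensity is linear, background-subtracted and corrected for trends across the array. The series table, also deposited, gives the authors' normalized intensity, used as an alternative.

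The processed intensity deposited by the authors was transformed here to log2, without control and outlier spots, averaged over the spots of a probe and quantile normalized over the 4 arrays for 56495 probes, those of 56605 measured on all of them. Each gene name was represented by its brightest probe. A log2 ratio is AAI minus corn oil within a sex, and 2-fold is a log2 ratio of 1. A gene above background on 1 array of a pair has a bound, measured to the lowest signal above background on the other. With 1 array per group no test was made, the number of arrays limits the precision, and the spread shown is that of spots, of probes or of the scanner's error model.

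The 6 genes and the 8 erythroid and 11 marker lists were chosen with earlier results of these data known. The rule for named genes took all 6 with every probe, from each erythroid list the genes past 2-fold in either sex or else its defining genes, at most 2 genes of a marker list, and the 10 genes with the nearest profile; further list genes were named after their values were seen. Some genes under this rule are not reported here. *Tf* was read under its name *Trf*. The alternatives tried were 8 for ratios, and a fold of 3 for counts. The ratio steps were tested on simulated data. Python 3.11.15, numpy 2.4.6, pandas 2.3.3, R 4.3.3 and limma 3.58.1 were used. Promoters and motifs come from a RefSeq table on GRCm38.p6, which is not the build of the probes (mm9), and no coordinate was converted.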

Additional observations from a re-analysis of the deposited data

Results flagged for a closer look

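*Ahsp* and *Hamp2* stood out because AAI and corn oil differed in opposite directions in females and males by 2-fold or more. The log2 ratios were 1.04 in females and -1.62, a bound, in males for *Ahsp*, and -2.10 and 1.92 for *Hamp2*. Each rests on 1 array per group, the sexes received different doses, and the difference between them was not tested. For both genes, female controls and AAI-treated males lay on the same side of their pair. These are also the arrays with the spots of low processed signal (26 and 77) and with fewer digits. With those spots left out, the ratios were 1.04 and -1.62 for *Ahsp*, and -2.10 and 1.92 for *Hamp2*. The part of this array difference in the opposite directions was not tested.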

How the results depend on the processing

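No ratio of the 6 genes changed direction under any of the 8 alternatives. *Alas2*, *Hbb-bt* and *Hba-a1* stayed at least 2-fold lower in males under all 8. With normexp background correction, *Ahsp* was 0.51 in females and -0.68 in males, the median of the 6 genes in males -1.30, and the counts 343 lower and 139 higher in females and 643 and 554 in males. Without the filter on dim probes, *Ahsp* in males was -3.74 and the median -2.15, and the counts were 1078 higher in females, 2240 lower in males and 1793 higher in males. *Ahsp* in males was -1.27 without the multiplicative trend correction and -1.97 when normalized over probes above background on all arrays. *Hbb-bt* in males was -2.10 with each array scaled to its 75th percentile, and *Klf1* in males 0.53 with probes averaged. At a fold of 3 the counts were 225 lower and 127 higher in females, and 510 and 471 in males, since fewer genes pass a higher fold. The cause of the other shifts was not tested. Of the other erythroid genes named, *Xk* in males was -0.33, *Sptb* in males 0.57 and *Trim58* in females -0.85 with normexp, and *Smad7* in males 0.70 with probes averaged, all under 2-fold. No paired analysis was possible because each group has 1 array, and no array could be left out. Signals near background, such as that of *Ahsp*, give only bounds, and sex, dose and array cannot be told apart.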
